A study of Rattus norvegicus with 8 samples.

Results

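Chaperones and protein folding genes were measured on 82 probe sets for 44 genes, out of 8799 probe sets for 4737 named genes on the A array of the Affymetrix rat U34 set. They were chosen by a rule on gene names, set with earlier results of these data known. It took every probe set with a single gene symbol of the families Hspa, Hspb, Hspd, Hspe, Hsph, Dnaj, Pdia, Cct, Fkbp or Erp. The cyclophilins Ppia, Ppib, Ppic, Ppid and Ppif also counted, as did Canx, Calr, P4hb, Hyou1, Sil1 and Tcp1. Although the set was assembled around folding in the endoplasmic reticulum (ER), 16 of the genes (31 probe sets) encode ER proteins by textbook assignment, 21 (40 probe sets) cytosolic ones and 5 (9 probe sets) mitochondrial ones. The other 2 genes, Dnajb14 and Dnajc17, were placed in none of these classes. Hspa8, Hspa1b, Ppia, Sil1, Tcp1 and Fkbp5 were not measured by a probe set of a single symbol.

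The study looked for genes downstream of Pax6, a paired-domain transcription factor of the developing eye, nose and brain. Its groups were Pax6 homozygous forebrain, wild-type forebrain, Pax6 homozygous hindbrain and wild-type hindbrain, all from rat embryos of stage E12.5 (days of gestation), with 2 arrays per group and 8 in all. The labels name neither the Pax6 allele carried by the homozygous embryos nor the strain, and do not say whether the 2 arrays of a group hold RNA of different litters, so a p-value here reflects the scatter of these arrays, which may be technical. Eye and nose primordia and midbrain were dissected with the forebrain, and pharyngeal arches with the hindbrain.

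Proteins that enter the secretory pathway fold in the ER lumen, where the Hsp70 protein BiP (Hspa5) binds exposed chains, the lectins calnexin (Canx) and calreticulin (Calr) hold glycoproteins, and protein disulfide isomerases pair cysteines. The cytosol has its own Hsp70 proteins, their J-domain partners and the ring-shaped CCT chaperonin, while mitochondria use Hspa9 and the Hsp60 and Hsp10 chaperonin (Hspd1 and Hspe1). The unfolded protein response of the ER and the heat shock response of the cytosol are the classical programmes that raise these genes, and they act through different promoter elements.

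The promoters below are those of members in which a spelled copy of these elements was found in the DNA sequence, which is independent of the array signal. Most members carry neither. RefSeq promoters of rat build GRCr8 were found for 39 of the 44 genes, and the 250 bases before each annotated start were searched on both strands. The ER stress response element was spelled CCAAT and CCACG with any 9 bases between them, and the heat shock element GAA, TTC and GAA with any 2 bases after the first and after the second block. The sequences run 5′ to 3′ on the strand of the gene and the matches are in capitals.
Hspa5, ER stress response element, chr3:38452766-38453015, plus strand: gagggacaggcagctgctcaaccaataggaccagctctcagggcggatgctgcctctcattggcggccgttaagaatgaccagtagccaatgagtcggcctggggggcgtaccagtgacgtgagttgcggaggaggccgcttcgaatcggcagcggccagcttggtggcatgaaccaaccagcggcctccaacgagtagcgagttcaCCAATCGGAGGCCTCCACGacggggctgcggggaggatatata
Calr, ER stress response element on the opposite strand, chr19:40213117-40213366, plus strand: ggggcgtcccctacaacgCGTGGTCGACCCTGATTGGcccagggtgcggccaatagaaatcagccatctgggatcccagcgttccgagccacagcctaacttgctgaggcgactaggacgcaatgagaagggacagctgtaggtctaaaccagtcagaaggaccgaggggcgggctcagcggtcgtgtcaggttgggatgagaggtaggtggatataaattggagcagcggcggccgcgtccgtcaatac
Canx, ER stress response element, chr10:35157858-35158107, minus strand: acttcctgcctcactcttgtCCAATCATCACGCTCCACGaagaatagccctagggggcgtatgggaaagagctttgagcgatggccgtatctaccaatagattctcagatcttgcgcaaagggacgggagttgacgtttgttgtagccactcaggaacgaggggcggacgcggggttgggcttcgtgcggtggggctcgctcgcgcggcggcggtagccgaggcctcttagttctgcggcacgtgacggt
Hspd1, heat shock element, chr9:64084038-64084287, minus strand: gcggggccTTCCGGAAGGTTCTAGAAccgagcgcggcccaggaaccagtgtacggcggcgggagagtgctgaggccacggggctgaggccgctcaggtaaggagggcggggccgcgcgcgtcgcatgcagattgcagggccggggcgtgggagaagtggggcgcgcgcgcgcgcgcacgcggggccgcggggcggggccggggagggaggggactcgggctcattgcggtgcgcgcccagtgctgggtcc
Hsph1, heat shock element on the opposite strand, chr12:10427118-10427367, plus strand: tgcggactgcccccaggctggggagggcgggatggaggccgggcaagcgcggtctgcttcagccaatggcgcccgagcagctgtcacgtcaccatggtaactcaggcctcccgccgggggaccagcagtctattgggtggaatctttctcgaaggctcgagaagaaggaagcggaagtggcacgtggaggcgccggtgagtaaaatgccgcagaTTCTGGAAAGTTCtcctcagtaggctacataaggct

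The ER stress response element matched 3 of 14 ER genes with a promoter (Hspa5, Calr and Canx), 0 of 18 cytosolic genes and 0 of 5 mitochondrial genes, against 22 of all 33469 promoters (0.0657%). It lay 43 to 25 bases before the start of Hspa5, 232 to 214 before that of Calr and 230 to 212 before that of Canx. The heat shock element matched 0 of 14 ER genes, 1 of 18 cytosolic genes (Hsph1) and 2 of 5 mitochondrial genes (Hspd1 and Hspe1), against 222 of all promoters (0.663%). Hspd1 and Hspe1 lie head to head, so both matches are the same bases, chr9:64084262-64084279, where an overlapping copy was found on each strand. The shorter CCAAT box, which is part of the ER stress response element, was found for 9 of 14 ER genes and 9 of 18 cytosolic genes. It was in 11385 of all 33469 promoters. Members are counted by gene and the background by promoter. A gene with more than 1 annotated start, such as Hyou1, can match in any of its windows, so these shares are not like for like. A match is a description of the letters, and a promoter without one lacks only these letters in this window.

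The deposited intensities of the members ran from -2140 to 44586 on 1 linear scale, with the array's noise level, taken as the size of the 5th percentile of its values, between 243 and 619.8. Of the 82 probe sets, 63 (33 genes) exceeded that level on all 8 arrays and 6 on none. Detection was most complete for ER members, with 27 of 31 probe sets above noise on every array, against 29 of 40 cytosolic and 7 of 9 mitochondrial probe sets. The filter on dim signals left 76 probe sets of 41 genes for testing. Fkbp1b, Hspb2 (both probe sets), Dnajc17 and 1 probe set each of Hspa5 and Hspb1 were not tested. Pax6 itself read 1243 and 926.6 in the forebrain of Pax6 homozygous embryos, against 1197 and 635.8 in that of wild-type embryos. In hindbrain it read 1194 and 1111 in Pax6 homozygous embryos, against 826.8 and 531.1 in wild-type embryos. The allele is not given, so the level of this transcript does not check the genotype labels.

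Other cell types differed between the groups. Summed over 6 neuron markers, forebrain arrays read 17965 to 18902. Hindbrain arrays read 50530 and 52773 in Pax6 homozygous embryos, against 65205 and 74414 in wild-type embryos, with 5 of 6 markers lower on average and none called. Sums of 7 neural progenitor markers were 86522 and 76664 in Pax6 homozygous forebrain, against 102200 and 102597 in wild-type forebrain. In hindbrain they were 92723 and 93113, against 128140 and 112600. Of these markers Fabp7 was called lower in both regions. In hindbrain it read 1190 and 1205 in Pax6 homozygous embryos, against 16568 and 15111 in wild-type embryos. Id3, not called, read 22754 and 11782 in Pax6 homozygous forebrain, against 25039 and 36491 in wild-type forebrain. The log2 genotype differences of Nes and Vim were small, at 0.08 and -0.08 in forebrain and -0.085 and -0.14 in hindbrain. Over 5 muscle markers the sums were 972 to 1424 in forebrain and 18097 to 19347 in hindbrain. Most of the hindbrain sum was Actc1 alone, at 13746 to 17000 there, against -184 to 56.7 in forebrain. Myog and Des each exceeded noise on only 2 of the 8 arrays. Lens markers summed to 2867 and 1841 in Pax6 homozygous forebrain, 7778 and 8666 in wild-type forebrain and 1961 to 2760 in hindbrain. Most of the wild-type forebrain sum was Cryaa, at 4919 and 5254, and Crybb3, at 1779 and 2240. Of 9 mesenchyme markers only Alx1 was called between the regions over both genotypes, with a log2 difference of 5.01 (higher in forebrain). The median of the 9 was 0.09. The 6 blood markers were lower on average in Pax6 homozygous forebrain than in wild-type forebrain for 6 of 6, with a median log2 difference of -0.44. In hindbrain 5 of 6 were lower, with a median of -0.22, and none of them passed the test in either region. One of the 6, Epor, exceeded noise on only 2 of the 8 arrays, and its forebrain difference was -0.31 ± 1.60. In whole tissue, fewer cells of a type and less RNA per cell cannot be told apart, and the part of these markers in the results below was not tested.

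**Figure D1:**
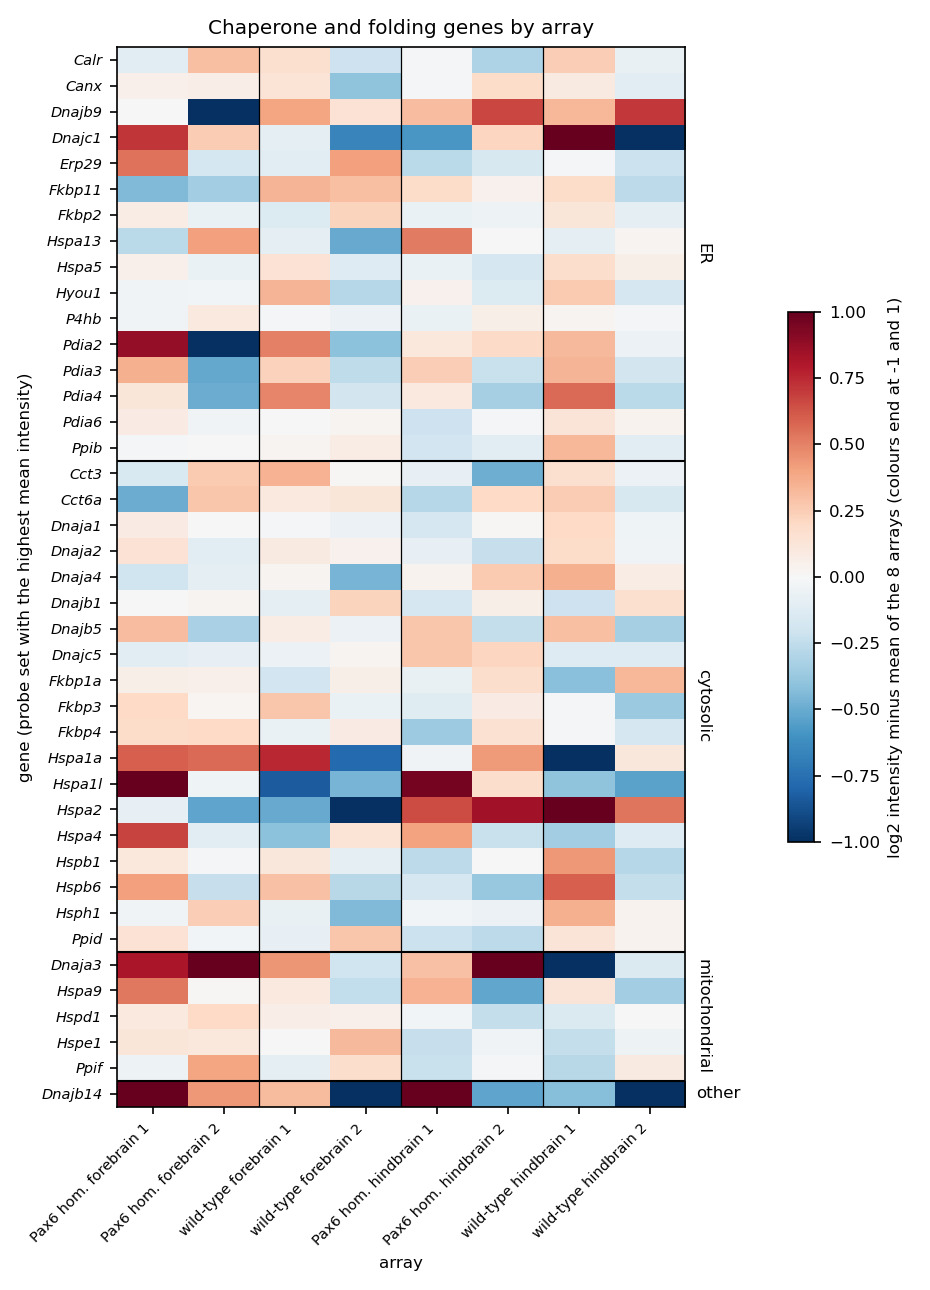
Heat map of the 41 tested genes (rows, by compartment) on the 8 arrays (columns). Colour is the log2 intensity of each gene's brightest probe set minus its mean over the 8 arrays, with the scale ending at -1 and 1. Most ER and cytosolic genes are pale, the strongest colours are in dim genes such as Hspa2, Hspa1l and Dnajb14, and the Hspd1 and Hspe1 rows are warmer in forebrain than in hindbrain.

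No member passed the test for a genotype difference in the forebrain (limma, Benjamini-Hochberg adjusted p under 0.05, over all 5881 probe sets tested): 0 of 76 were called, against a background of 0.017% of all probe sets. At an unadjusted p under 0.05 there were 3 of 76 (3.95%), against 2.92% of all. These were Erp29, Fkbp11 and Canx, all ER members. The 2 Pax6 homozygous arrays lay wholly above or below the 2 wild-type arrays for 18 of 76 probe sets (23.7%), 12 of them higher and 6 lower, against 23% of all probe sets tested. The members were therefore separated by genotype about as often as any probe set on the array.

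The member with the smallest p was Erp29, a lumenal ER protein with a thioredoxin-like fold that aids secretion. Its probe set U36482_at read 3973 and 4791 in Pax6 homozygous forebrain, against 8002 and 10083 in wild-type forebrain. In the hindbrain it read 5061 and 4627 in Pax6 homozygous embryos, against 6778 and 6418 in wild-type embryos. The Pax6 homozygous arrays were thus below the wild-type arrays in both regions, without overlap. The log2 difference was -1.04 ± 0.19 (SE) in forebrain (adjusted p = 0.404), -0.45 ± 0.19 in hindbrain and -0.74 ± 0.14 over both regions (adjusted p = 0.392). Over 14 alternative settings the adjusted p of this last value was 0.17 to 0.999, and the difference -0.83 to -0.66. The difference between the regions was not called (interaction -0.60 ± 0.27, adjusted p = 1). With the array number as a block in the limma model, the adjusted p for genotype was 0.227 in forebrain and 0.183 over both regions, so neither was called.

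The second Erp29 probe set gave another result. U36482_g_at, whose name cites the same sequence record, read 13429 and 8162 in Pax6 homozygous forebrain, against 8513 and 12265 in wild-type forebrain. The groups overlapped and the log2 difference was 0.035 ± 0.26, with a 95% interval of -0.56 to 0.63. In hindbrain it was -0.11 ± 0.26. A lower Erp29 signal in Pax6 homozygous embryos was therefore seen with only 1 of the 2 probe sets.

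Fkbp11, a membrane-anchored ER prolyl isomerase known from secretory cells, read 1242 and 1325 in Pax6 homozygous forebrain, against 2137 and 2074 in wild-type forebrain. In hindbrain it read 1916 and 1739 in Pax6 homozygous embryos, against 1911 and 1408 in wild-type embryos. The forebrain groups were tight and apart, and the hindbrain groups overlapped. The log2 difference was -0.71 ± 0.26 in forebrain (adjusted p = 1) and 0.15 ± 0.26 in hindbrain. Its interaction of -0.87 ± 0.37 had the only unadjusted p under 0.05 among the 76 members (adjusted p = 1). For the interaction 0 of 76 members were called, against 0% of all probe sets, and 1 of 76 (1.32%) had an unadjusted p under 0.05, against 1.9% of all.

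Canx, the membrane-bound lectin chaperone of the ER, was covered by 5 probe sets. L18889_at read 10976 and 9465 in Pax6 homozygous forebrain, against 8459 and 5853 in wild-type forebrain. Its hindbrain values were 11126 and 11826 in Pax6 homozygous embryos, against 9400.1 and 8695 in wild-type embryos. The Pax6 homozygous arrays were above the wild-type ones in both regions, by a log2 difference of 0.53 ± 0.20 in forebrain (adjusted p = 1), 0.34 ± 0.20 in hindbrain and 0.44 ± 0.14 over both (adjusted p = 0.928). The other 4 probe sets had forebrain differences of 0.19 to 0.41 and hindbrain differences of -0.043 to 0.11, with overlapping arrays in both regions.

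The Canx differences in forebrain depended on 1 array, in size for L18889_at and in sign for the other probe sets. The second wild-type forebrain array held the lowest of the 8 values for 5 of 5 Canx probe sets. Without that array the L18889_at difference was 0.27, with both Pax6 homozygous arrays still above the remaining wild-type one, and without the first wild-type forebrain array it was 0.80. On each of the other Canx probe sets the remaining wild-type array was instead above both Pax6 homozygous forebrain arrays. The rc_AI010725_g_at difference, for example, became -0.081. The same array held the lowest value for 18 of the 76 members (23.7%), against 20.2% of all probe sets tested, while the first wild-type hindbrain array held the highest for 20 members (26.3%), against 21.1% of all.

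**Figure D2:**
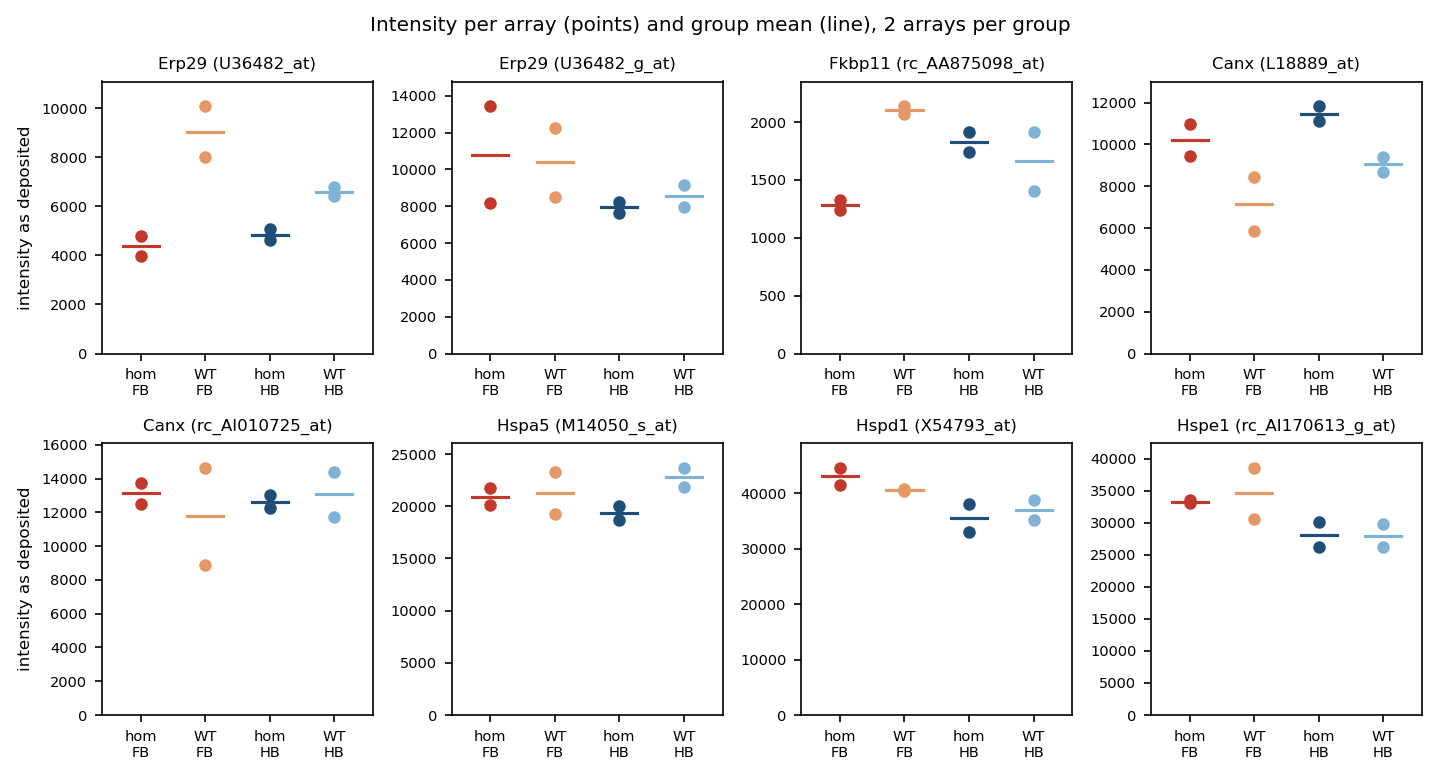
Deposited intensity (linear scale from 0) of 8 probe sets on each array, with points for arrays and a line for the mean of the 2 arrays of a group. FB is forebrain, HB hindbrain, hom Pax6 homozygous and WT wild-type. The 2 Erp29 panels differ in forebrain, Fkbp11 is lowest in Pax6 homozygous forebrain, and Hspd1 and Hspe1 are higher on every forebrain array than on any hindbrain array.

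None of the abundant ER chaperones and isomerases passed the test between genotypes. BiP, Hspa5 (M14050_s_at), read 21708 and 20112 in Pax6 homozygous forebrain, against 23273 and 19241 in wild-type forebrain, and 20053 and 18696 in Pax6 homozygous hindbrain, against 23696 and 21843 in wild-type hindbrain. The forebrain groups overlapped, with a log2 difference of -0.018 and a 95% interval of -0.35 to 0.31. The hindbrain groups did not overlap, with -0.23 and an interval of -0.56 to 0.094. The weaker Hspa5 probe set S63521_i_at had the opposite sign in hindbrain, 0.48, again without overlap, and -0.32 in forebrain.

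P4hb, the founding protein disulfide isomerase, had on X02918_at a forebrain difference of 0.072 (95% interval -0.21 to 0.36) and a hindbrain difference of -0.011 (-0.30 to 0.27). Its relative Pdia6 read 22741 to 28634 over the 8 arrays, with 0.0052 (-0.29 to 0.30) in forebrain and -0.19 (-0.48 to 0.10) in hindbrain. These intervals lay within a 2-fold change either way, but the weaker P4hb probe set M21476_s_at was less precise, at 0.40 (-0.57 to 1.38) in forebrain and 0.05 (-0.93 to 1.03) in hindbrain. The glycoprotein-associated isomerase Pdia3 (X12355_s_at) and Pdia4 had differences of -0.064 and -0.34 in forebrain and -0.067 and -0.27 in hindbrain. Their intervals were wider, -0.79 to 0.67 for Pdia3 and -1.17 to 0.48 for Pdia4 in forebrain, and the first array of every group read higher than the second for both. Between arrays of the same number, Pdia4 was lower in Pax6 homozygous tissue in 4 of 4 pairs, with a log2 difference over both regions of -0.31 ± 0.12 when the number was a block (adjusted p = 0.462). Of 76 members 10 (13.2%) went one way in all 4 pairs, 6 higher and 4 lower in Pax6 homozygous tissue, against 19.4% of all probe sets tested.

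Calr, the soluble lectin partner of calnexin, differed by 0.12 in forebrain and -0.25 in hindbrain on D78308_at, with overlap in both. Ppib, the ER cyclophilin, differed by -0.063 and -0.26 on rc_AA818487_s_at, and Fkbp2, a small ER prolyl isomerase, by -0.039 and -0.077 on C06598_at. Hyou1, the exchange factor of BiP, differed by -0.057 and -0.09 on its brighter probe set. None of these 4 genes was called in either region. Dnajb9, a J-domain partner of BiP, was dim, at 446 and 75.4 in Pax6 homozygous forebrain against 585 and 492 in wild-type forebrain, with no Pax6 homozygous forebrain array above noise. Its mean on these arrays was at least 1.38-fold lower there than in wild-type forebrain. That bound allows for noise but not for the scatter between arrays. The 95% interval of the log2 difference, -3.29 to 0.19, included no change, and the difference was not called (adjusted p = 1).

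Among cytosolic members the smallest forebrain p belonged to Hsph1, the Hsp110 exchange factor of Hsp70. Its probe set AA108277_at read 1500.1 and 1717 in Pax6 homozygous forebrain, against 1385 and 686 in wild-type forebrain, and rc_AI236601_at 5780.1 and 7025 against 5618 and 4339.8. The groups did not overlap for either probe set, with log2 differences of 0.72 ± 0.36 and 0.37 ± 0.21 that were not called (adjusted p = 1 for both). Both lowest values again came from the second wild-type forebrain array, without which the AA108277_at difference was 0.21. In hindbrain the differences were 0.10 and -0.24.

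Dnaja1, a J-domain partner of Hsp70, gave 0.96 in forebrain on rc_AA800551_at, where the second wild-type forebrain array read 1974 and the other 7 arrays 4059 to 8148. Its brighter probe set U53922_at gave 0.079 (-0.23 to 0.39). Hspa4, another Hsp110-family protein, read on AF077354_at 3799.9 and 744 in Pax6 homozygous forebrain against 1057 and 974 in wild-type forebrain, and 3828 and 1519.5 in Pax6 homozygous hindbrain against 850.3 and 882 in wild-type hindbrain. The first array of both Pax6 homozygous groups stood far above the second, and the hindbrain difference of 1.48 ± 0.70 was not called (adjusted p = 0.989). The brighter Hspa4 probe set AF077354_g_at gave 0.42 in forebrain and 0.33 in hindbrain, with overlapping arrays in both regions.

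The hindbrain comparison was equally sparse: 0 of 76 members were called, against 0.017% of all probe sets, and 3 of 76 (3.95%) had an unadjusted p under 0.05, against 4.49% of all. The arrays of the genotypes did not overlap for 14 of 76 (18.4%), 6 higher and 8 lower in Pax6 homozygous hindbrain, against 34.5% of all. Besides Erp29 the 3 included Dnajc5, the cysteine-string protein of synaptic vesicles, which read 7768 and 7464 in Pax6 homozygous hindbrain, against 5857 and 5858 in wild-type hindbrain. The Pax6 homozygous arrays were the highest of the 8, with a difference of 0.38 ± 0.16 (adjusted p = 0.989). In forebrain the difference was -0.081, and the other 2 Dnajc5 probe sets, both dim, overlapped between genotypes in hindbrain.

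The third was Dnaja3, a mitochondrial J-domain protein, which read 728 and 1381 in Pax6 homozygous hindbrain, against -235 and 536 in wild-type hindbrain. The negative value makes the size of the log2 difference, 2.68 ± 0.98, depend on the floor, and it was 0.90 to 4.45 over 15 alternative settings (adjusted p 0.078 to 1). In the forebrain Dnaja3 read 1047 and 1429 in Pax6 homozygous embryos, against 804 and 517 in wild-type embryos. Cct3, a subunit of the CCT chaperonin, differed by -0.34 ± 0.22 in hindbrain without overlap, and Cct6a, another subunit, by -0.088 ± 0.32 with overlap.

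Over both regions together 0 of 76 members were called, against 0.034% of all probe sets. There were 3 of 76 (3.95%) with an unadjusted p under 0.05, against 5.02% of all, and these were Erp29, Canx and Dnaja3. The genotype differences in forebrain and in hindbrain had the same sign for 39 of 76 members (51.3%), against 57.6% of all probe sets tested. The 95% interval of the genotype difference lay within a 2-fold change either way for 48 of 76 members in forebrain and 51 of 76 in hindbrain. For the remaining probe sets a change of 2-fold or more was within the interval.

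**Figure D3:**
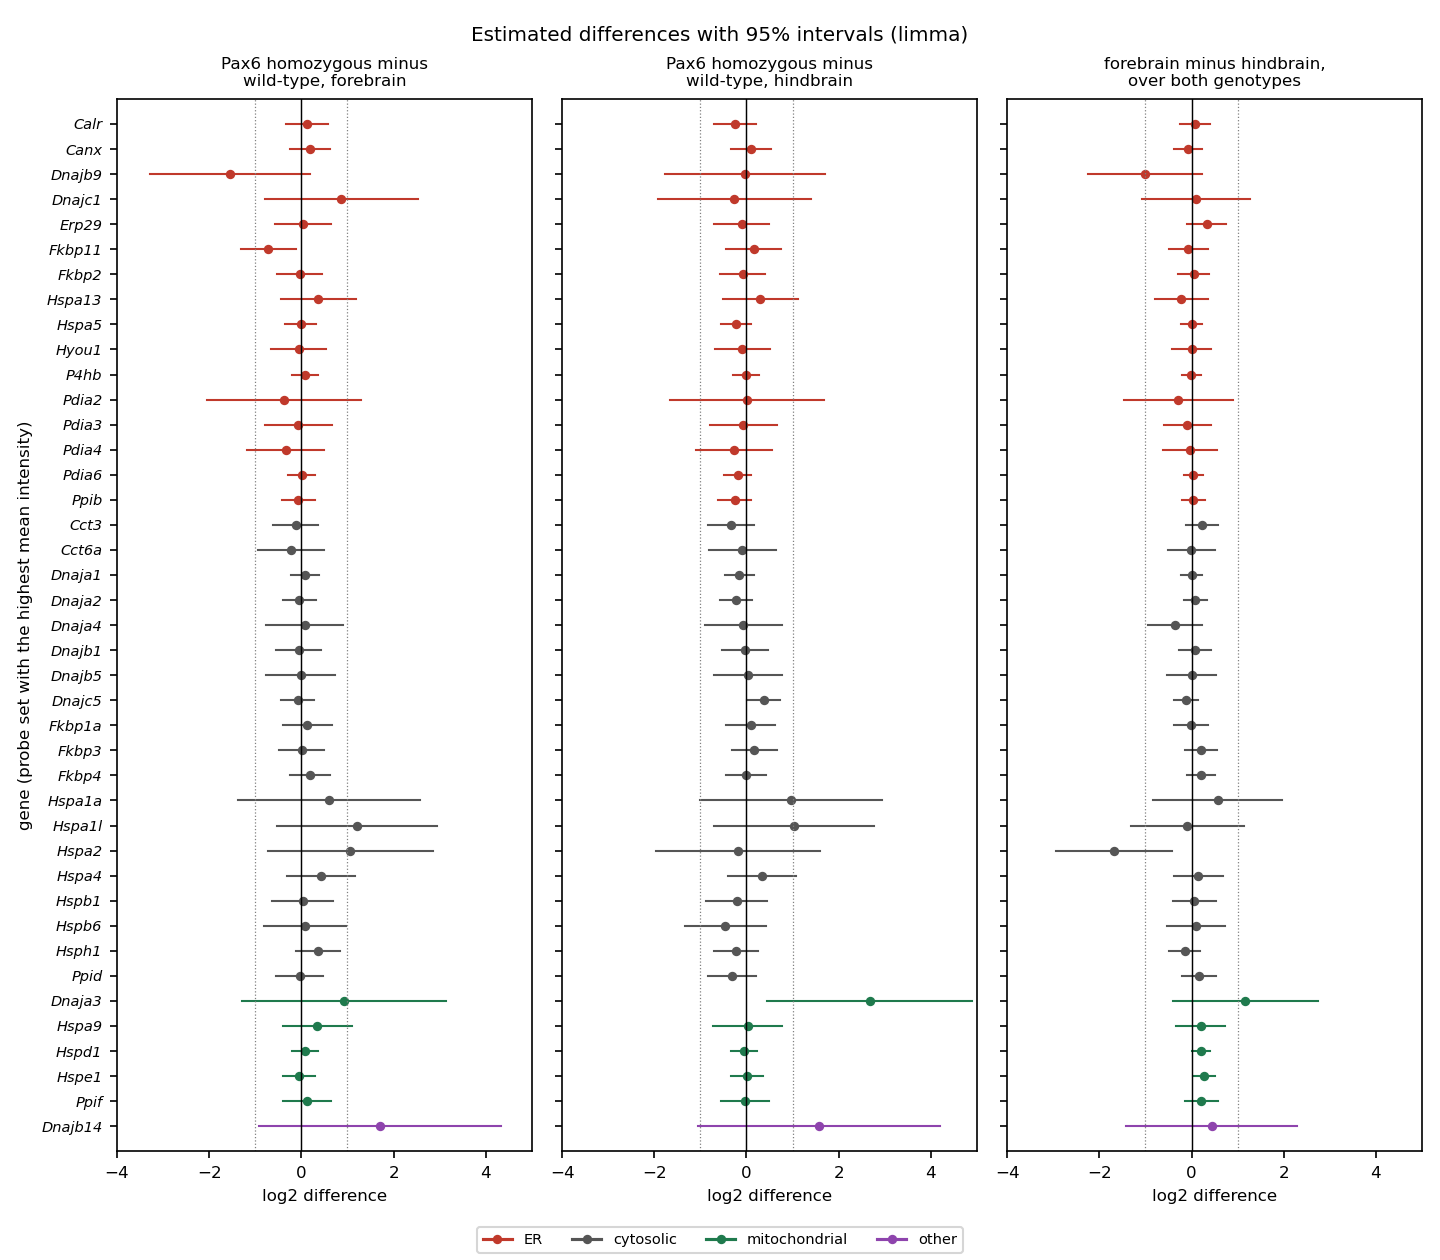
Log2 differences (points) with 95% intervals (lines) of the brightest tested probe set of each of 41 genes, coloured by compartment, for Pax6 homozygous minus wild-type in forebrain (left) and hindbrain (middle) and for forebrain minus hindbrain over both genotypes (right). Dotted lines mark a 2-fold change. No gene was called, and most intervals of ER genes in the right panel are shorter than 1 log2 unit on either side.

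Comparing compartments, ER genes had a median log2 genotype difference of -0.029 in forebrain over 16 genes (7 above 0 and 9 below), and cytosolic genes 0.074 over 19 genes (12 above and 7 below). The median of all probe sets tested was 0.0081. In hindbrain the medians were -0.083 for ER genes (4 above 0 and 12 below) and -0.067 for cytosolic genes (7 above and 12 below), with 0.037 for all. These shifts are small beside the scatter of the arrays, since the ER median on a single array varied with an SD of 0.16 between arrays of a group and the cytosolic median with 0.10.

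Array by array, the ER median minus the cytosolic median was -0.059 and -0.032 in Pax6 homozygous forebrain, against 0.16 and -0.10 in wild-type forebrain. In hindbrain it was 0.068 and -0.094 in Pax6 homozygous embryos, against 0.056 and -0.042 in wild-type embryos. All 4 groups overlapped, so neither genotype nor region separated ER from cytosolic genes beyond the spread of the arrays. The ER median itself was lowest on the second wild-type forebrain array, at -0.15, and highest on the first wild-type hindbrain array, at 0.22. Over all probe sets tested these 2 arrays were at -0.096 and 0.086.

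**Figure D4:**
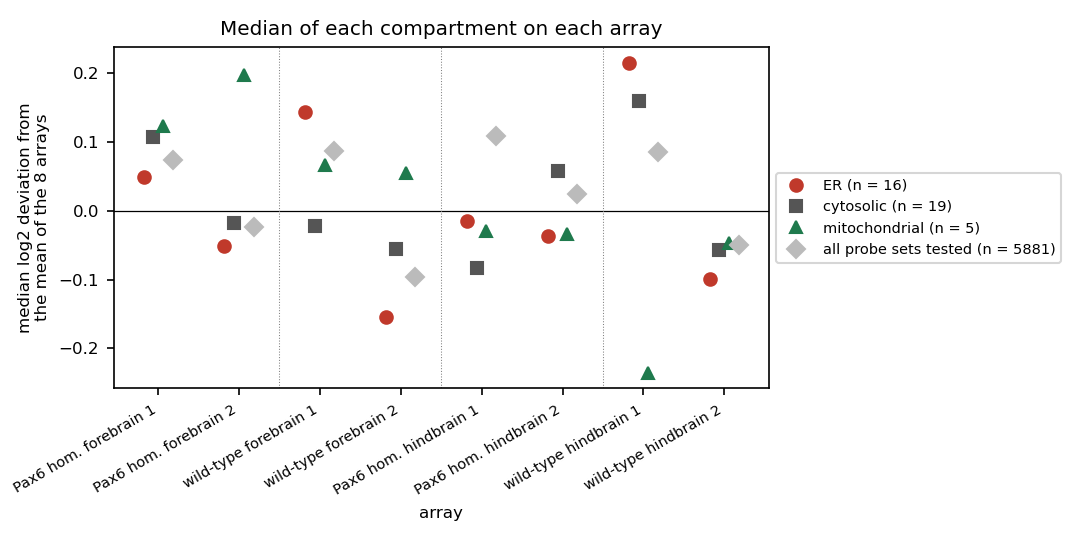
Median log2 deviation from the mean of the 8 arrays for ER (16 genes), cytosolic (19 genes) and mitochondrial (5 genes) members and for all 5881 probe sets tested, on each array. The ER medians overlap between genotypes in both regions, and the cytosolic medians overlap in hindbrain. In forebrain the cytosolic medians are barely apart, at -0.018 on the second Pax6 homozygous array and -0.022 on the first wild-type array. That gap is far below the SD of 0.10 between arrays of a group. The mitochondrial median is above 0 on the 4 forebrain arrays and below 0 on the 4 hindbrain arrays.

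Between the regions, averaged over both genotypes, 0 of 76 members were called, against 1.51% of all probe sets. An unadjusted p under 0.05 was found for 3 of 76 (3.95%), against 8.09% of all, and the 4 forebrain arrays lay wholly above or below the 4 hindbrain arrays for 7 of 76 (9.21%), against 6.65%. Within Pax6 homozygous embryos alone 0 of 76 were called, against 0.459%, and within wild-type embryos 0 of 76, against 0.782%. The median forebrain minus hindbrain difference was -0.0017 for ER genes, 0.058 for cytosolic genes and 0.22 for mitochondrial genes, with -0.019 for all probe sets tested.

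The 3 probe sets that were higher on every forebrain array were all of the mitochondrial chaperonin, 1 of Hspd1 and 2 of Hspe1, and the 4 that were lower were of Hyou1, Dnaja4, Hspa2 and Hspa9. Hspd1, the Hsp60 ring, read on X54793_at 41561 and 44586 in Pax6 homozygous forebrain and 40738 and 40398 in wild-type forebrain, against 38112 and 33057 in Pax6 homozygous hindbrain and 35231 and 38849 in wild-type hindbrain. Every forebrain array was above every hindbrain array, by a log2 difference of 0.21 ± 0.088 (adjusted p = 0.603). The other Hspd1 probe set, rc_AA858640_s_at, gave 0.20 ± 0.12 with overlapping arrays.

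Hspe1, the Hsp10 lid of the same chaperonin, read on rc_AI170613_g_at 33508 and 33031 in Pax6 homozygous forebrain and 30605 and 38563 in wild-type forebrain, against 26240.2 and 30052 in Pax6 homozygous hindbrain and 26124 and 29772 in wild-type hindbrain. Both Hspe1 probe sets were higher on every forebrain array than on any hindbrain array, by 0.27 ± 0.11 (adjusted p = 0.527) and 0.24 ± 0.12. The Hspd1 and Hspe1 genes are the pair that shares the heat shock element printed above. Between genotypes the 4 probe sets differed by -0.052 to 0.15 in forebrain and -0.065 to 0.17 in hindbrain.

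Counting 1 probe set per gene, 5 of 5 mitochondrial members had a positive forebrain minus hindbrain difference, from 0.20 to 1.16. Besides the chaperonin they were Hspa9, the mitochondrial Hsp70 (0.20 ± 0.23 on S78556_at), Ppif, the matrix cyclophilin (0.22 ± 0.16), and Dnaja3 (1.16 ± 0.69). The median of the 5 was 0.054 to 0.20 on forebrain arrays and -0.24 to -0.03 on hindbrain arrays. The Hspa9 difference was -0.017 without the second Pax6 homozygous hindbrain array, so the count of 5 rests on that array. Hspa9 was not uniform, since its other 2 probe sets gave -0.88 ± 0.40 and -0.28 ± 0.38. The dim one of these, rc_AA944973_at, exceeded the noise level on no forebrain array and on 3 of 4 hindbrain arrays. Its highest forebrain value, 357.7, was only just below its lowest hindbrain value, 360.2. Its mean on these arrays was at least 1.13-fold lower in forebrain, a bound that does not allow for the scatter between arrays.

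Trap1, the mitochondrial Hsp90 and not a member by name, showed a like difference. It read 11102 and 10146 in Pax6 homozygous forebrain and 9440.5 and 9518 in wild-type forebrain, against 7737 and 8167 in Pax6 homozygous hindbrain and 7756 and 7937 in wild-type hindbrain. Every forebrain array was above every hindbrain array, by 0.34 ± 0.10 (adjusted p = 0.261), and the difference was not called.

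In the other direction Hspa2, a cytosolic Hsp70 best known from testis, read 208 and 153 in Pax6 homozygous forebrain and 156 and 46.7 in wild-type forebrain, against 347 and 395 in Pax6 homozygous hindbrain and 549.6 and 320.1 in wild-type hindbrain. No forebrain array and 2 of 4 hindbrain arrays exceeded the noise level, so the fitted difference of -1.68 ± 0.55 (adjusted p = 0.328) rests on values at noise and no lower bound of the fold above 1 can be given. Hyou1 was lower on every forebrain array on its weaker probe set U41853_at, 771 to 789 in forebrain against 929 to 1242 in hindbrain (-0.39 ± 0.23), and its brighter one gave 0.00054 (-0.42 to 0.42). Dnaja4, a cytosolic J-domain protein, was 549 to 771 in forebrain against 774 to 969 in hindbrain on rc_AA799570_at (-0.36 ± 0.26), so the regions were barely apart. Its dimmer probe set AA848268_at overlapped, at 290 to 536 in forebrain and 382 to 507 in hindbrain.

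The abundant ER members differed little between the regions. Hspa5 (M14050_s_at) differed by 0.0027 (95% interval -0.23 to 0.23), P4hb (X02918_at) by -0.0039 (-0.20 to 0.20) and Pdia6 by 0.035 (-0.17 to 0.24). Calr gave 0.076, Ppib 0.04, Fkbp2 0.044, Pdia3 -0.091 and Pdia4 -0.036. Over all members the interval lay within a 2-fold change for 61 of 76 probe sets, and for 27 of the 30 ER probe sets. These values stood beside neuron and muscle markers whose sums were higher in the hindbrain tissue on every array.

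The bright cytosolic members were as close. Dnaja1 (U53922_at) differed between the regions by 0.0027 (-0.22 to 0.22). Fkbp1a, the small FK506-binding protein, differed by -0.0088 on rc_AI228738_s_at, and its 4 probe sets lay between -0.031 and -0.0088. Fkbp4, an Hsp90 partner, gave 0.18 to 0.26 on 3 probe sets, with the smallest adjusted p at 0.661.

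Several Hsp70 and small heat shock genes were dim or not detected. Hspa1a, the inducible Hsp70, read 307 and 300.4 in Pax6 homozygous forebrain, against 344 and 118 in wild-type forebrain. Its hindbrain values were 199 and 274 in Pax6 homozygous embryos, against 65.2 and 219.7 in wild-type embryos, and 2 of the 8 arrays were above noise. Hspa1l, a testis-type Hsp70, read 108 to 426 and exceeded noise on none, and both probe sets of the muscle small heat shock gene Hspb2 were negative on all 8 arrays. At this signal a difference in these genes was not detectable. The fitted genotype differences of Hspa1l, 1.20 in forebrain and 1.04 in hindbrain, thus rest on values at noise. Those of Dnajb14 were 1.71 and 1.58, and it exceeded noise on 1 of the 8 arrays. Both genes were higher in Pax6 homozygous tissue in 4 of 4 pairs of same-numbered arrays, and neither was called. Hspb1 (Hsp27) was detected, at 1752 to 2887 on rc_AI176658_s_at, and differed by 0.031 in forebrain and -0.21 in hindbrain between genotypes. Hspb6 (Hsp20) differed by -0.95 ± 0.56 in hindbrain on D29960_at, where the first wild-type array read 1437, and by -0.46 ± 0.39 on its brighter probe set.

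How well probe sets of the same gene matched was a measure of precision. Of 23 genes with several tested probe sets, 10 had genotype differences of opposite sign in forebrain, 12 in hindbrain, and 11 had opposite signs between the regions. The median spread between probe sets of a gene was 0.24 on the log2 scale in forebrain and 0.27 in hindbrain for genotype, and 0.17 between the regions. The largest spread was 1.08 in forebrain, the gap between the 2 Erp29 probe sets. It was 1.15 in hindbrain, the gap between the 2 Hspa4 probe sets, and 1.09 between the regions.

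Genes that work with these chaperones but are not members were read from 3 lists. Of 14 genes of Hsp90 and its cochaperones 7 were measured, of 13 of the unfolded protein response 6 were tested, and of 26 of ER translocation, glycosylation and quality control 15. None passed the test in any contrast. Hsp90ab1, the constitutive cytosolic Hsp90, read 70012 and 67239 in Pax6 homozygous hindbrain, against 89821 and 78599 in wild-type hindbrain (-0.29 ± 0.11, adjusted p = 0.989). Hsp90b1, the ER Hsp90, differed by 0.33 ± 0.16 between genotypes over both regions on S69315_at, with overlapping arrays in forebrain and none in hindbrain. Between arrays of the same number it was higher in Pax6 homozygous tissue in 4 of 4 pairs, 0.33 ± 0.097 with the number as a block, and was not called (adjusted p = 0.402). By the same measure the Hsp90b1 probe set AA685903_at gave 0.37 ± 0.18, higher in 4 of 4 pairs. Probe set S69316_s_at gave only 0.069 ± 0.11, higher in 3 of 4 pairs, with -0.029 in forebrain.

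Of the unfolded protein response, Ddit3 (CHOP), the stress-induced transcription factor, was dim and differed by -0.07 ± 0.64 between genotypes in forebrain and -0.93 ± 0.64 in hindbrain. Eif2s1, the translation factor that the ER stress kinases phosphorylate, differed by -0.10 ± 0.18 and 0.044 ± 0.18, and Nfe2l2, a regulator of antioxidant genes, by -0.55 ± 0.39 and 0.62 ± 0.39. Of the ER processing genes, the collagen lysyl hydroxylase Plod2 differed by 0.55 ± 0.22 in hindbrain (adjusted p = 0.989). Its relative Plod1 differed by -0.41 ± 0.23 and the oligosaccharyltransferase subunit Ddost by 0.49 ± 0.24 between the regions. The adjusted p for Ddost was 0.674, and none of these differences was called.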

How the data were processed

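Per the labels' protocols, poly(A) RNA of each dissected tissue was reverse-transcribed from a T7 oligo(dT) primer, and biotin-labelled cRNA was hybridised to rat U34 arrays (set A). The table the authors deposited holds linear intensities, 1 for each probe set on each array, including negative values (18.3% to 22.3% per array). The summary algorithm is not given in the sources used here. Each array's mean after trimming 2% at each end was 2500.0 within rounding, so the deposited scaling was kept. Replicate arrays correlated across probe sets, on the log2 scale, with r of 0.899 to 0.947. The small number of arrays limits the precision.

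From the intensities, values under the pooled 25th percentile (45.9) were raised to it and log2 was taken. Testing required 2 or more arrays above the pooled 40th percentile (255), which 5881 of 8799 probe sets met after 59 controls were left out. A single limma 3.58.1 model (R 4.3.3; lmFit, eBayes with trend, 4 residual degrees of freedom) of 4 group means gave two-sided p-values, adjusted by Benjamini-Hochberg over all probe sets tested, with a threshold of 0.05. Means and errors beside log2 values are limma estimates ± SE. For a group with every array at or below noise, a lower bound of the fold is printed (at least N-fold), computed with that group's arrays raised to their noise level and the other group's values as measured. The bound does not allow for the scatter between arrays.

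Gene names came from the platform annotation, with 7018 probe sets of 1 symbol, 308 of several and 1473 of none. Of the 308, 11 had a matching symbol among several and were not used. All 82 members matched a RefSeq gene by Entrez identifier. Lists are described with 1 probe set per gene, the brightest tested. Members, lists, compartments and alternatives were chosen with earlier results of these data known. Named were members past the threshold, the 5 genes per direction with the smallest p in the genotype and region contrasts, 33 core chaperones of which 22 were measured, and the 3 genes of each pathway list with the smallest p. Dnaja4 was named after its values were seen.

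The labels number the arrays of each group 1st and 2nd. Deviations of same-numbered arrays from their group means correlated in all 6 pairs of groups, at 0.28 to 0.46. The labels state no shared litter or day, so any pairing is read from the data alone. The main model did not use it, so its errors and p-values are unpaired. The array number as a block was an alternative setting. Python 3.11.15 with pandas 2.3.3 and matplotlib 3.10.9 made summaries and figures.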

Additional observations from a re-analysis of the deposited data

How the results depend on the processing

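Alternatives were quantile normalization, 2 other floors, no filter on dim probe sets, no intensity trend, fitting the 4 arrays of a contrast alone, the replicate number as a block, and leaving out each array in turn. The count of members called stayed at 0 in every contrast and setting but one: without the second wild-type hindbrain array it was 1 for forebrain minus hindbrain in wild-type embryos (Dnaja3, adjusted p = 0.0494), a range of 0 to 1 over the left-out arrays. With the replicate block, which uses the pairing of array numbers, 0 members were called in each contrast, while calls among all probe sets for region over both genotypes moved to 139, against 89 without it. Over the left-out arrays the ER median genotype difference in hindbrain ranged from -0.22 to 0.076, crossing 0 without the first wild-type hindbrain array. The cytosolic median ranged from -0.039 to 0.12 for genotype in forebrain, from -0.28 to 0.076 for genotype in hindbrain and from -0.058 to 0.13 between the regions. The sign of these small medians therefore depends on single arrays. Of 99 named differences 46 changed sign when an array was left out, 44 of them within 1 SE of 0, among them Hspa5 (M14050_s_at), Calr, Pdia3 and Fkbp2 for genotype in forebrain and Hspa9 (S78556_at) between the regions. The other 2 were Dnaja1 on rc_AA800551_at in forebrain, -0.064 without the second wild-type forebrain array and 1.98 without the first, and Hspa5 on S63521_i_at in forebrain, 0.039 without the first wild-type forebrain array and -0.68 without the second. The cause was not tested. Signal over noise limits Hspa1a, Hspa1l, Hspa2, Hspb2, Dnajb9, Dnajb14, Dnaja3 and Fkbp1b, whose log2 differences depend on the floor or were not tested. Dnaja3 in hindbrain was 0.96 with the floor at the pooled median of 497. Members within a 2-fold interval are those for which these arrays set a useful limit.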
